A study of Mus musculus with 6 samples.

Results

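The 10 genes described here are markers of neuroblasts and immature neurons: Dcx, Tubb3, Map2, Stmn2, Dpysl3, Gap43, Cd24a, Ncam1, St8sia2 and Rbfox3. They were taken by gene symbol from a count table of 24421 genes, all 10 were found there, and all 10 passed the filter on low counts. The table comes from RNA sequencing of 6 libraries of primary neural stem cells. The cells derive from the subventricular zone of adult C57BL/6 mice, at postnatal day 60, and were kept in EGF and FGF2 at 20 ng/ml each. Cells of 1 group received 20 µM PluriSIn#2, an inhibitor of topoisomerase IIA per the series description, for 3 days, with medium replaced at 24 h. Cells of the other group received its solvent, DMSO, and each group had 3 libraries. Both groups are wild type and share strain, age, medium and growth factors. The labels do not say whether the 3 libraries of a group came from separate cultures or mice, so p-values measure the spread between these libraries, which may be technical.

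Neuroblasts are the young, migrating neurons that adult stem cells of the lateral ventricle wall produce for the olfactory bulb. They build a bundled microtubule skeleton and a growth cone, and coat their surface with adhesion molecules that carry polysialic acid. Only later do they take on RNA-binding and synaptic proteins of mature neurons. The markers follow these steps: cytoskeletal proteins, growth cone proteins, surface proteins and a nuclear splicing regulator. Several of them are not exclusive to neurons. Map2, Gap43, Dpysl3 and Ncam1 are also transcribed in glial progenitors, and Cd24a in ependymal and blood cells.

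Library totals ran from 16670962 to 19241869 counts. Library pairs correlated at 0.994 or more within a group and at 0.88 or less between groups on the log2 CPM scale, where CPM is the count scaled to a common library size with edgeR's TMM factors. The treatment field of PluriSIn#2 replicates 2 and 3 carries other compound numbers than their titles. The groups follow the titles, and for genes named below, values with PluriSIn#2 replicate 1 alone are given where they differ in call or direction. The progenitor genes that check the label were read in both groups: Nes, the filament gene nestin, averaged 437 ± 3.21 CPM in PluriSIn#2 and 1187 ± 20.4 CPM in DMSO, and the stem cell factor Sox2 32.7 ± 0.341 CPM in PluriSIn#2 and 49.1 ± 2.31 CPM in DMSO (SD, n = 3 each). In bulk RNA, fewer cells of a type and less RNA per cell cannot be told apart.

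The comparison asks what happens to the neuronal programme of these stem cells when topoisomerase IIA is inhibited. The markers split. Map2, Dpysl3, Gap43 and Cd24a fell to between 41.5% and 48.7% of their DMSO mean, Stmn2, Rbfox3 and St8sia2 rose by between 1.61-fold and 2.67-fold, Ncam1 rose by 1.07-fold, and Dcx and Tubb3 were not called. In the quasi-likelihood test of edgeR, adjusted after Benjamini and Hochberg over 14417 genes with a threshold of 0.05, 8 of 10 markers were called (80.0%), against 82.6% of all genes tested. Of these, 4 were higher, where 41.7% of all genes were, and 4 were lower, where 40.9% of all genes were. The share called is thus near the background. All 4 that fell were at least 2-fold lower, as 11.7% of all genes were, although with library totals alone Cd24a came to a log2 fold change of -0.97. Stmn2 and Rbfox3 were at least 2-fold higher, as 16.3% of all genes were. Treated and DMSO libraries did not overlap for 9 of 10 markers, against 82.7% of all genes. Among these 9, the treated values of Stmn2, Rbfox3, St8sia2 and Ncam1 lay above DMSO, as did 41.8% of all genes. The median log2 fold change of the 10 markers was -0.03, beside 0.01 over all genes tested.

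**Figure D1:**
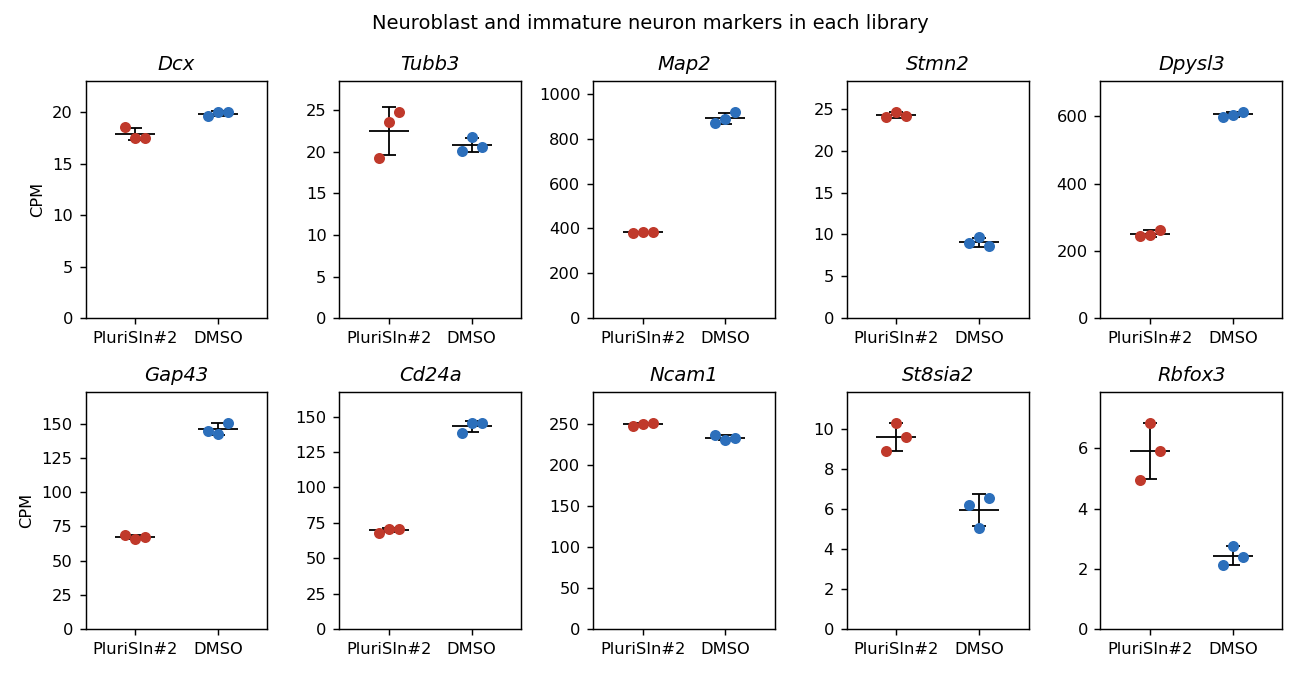
CPM of each marker in each library (points), with the mean and SD of 3 libraries per group (black bars), PluriSIn#2 on the left and DMSO on the right, each panel on its own linear axis from 0. Treated and DMSO points are apart for 9 of 10 markers and overlap for Tubb3.

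**Figure D2:**
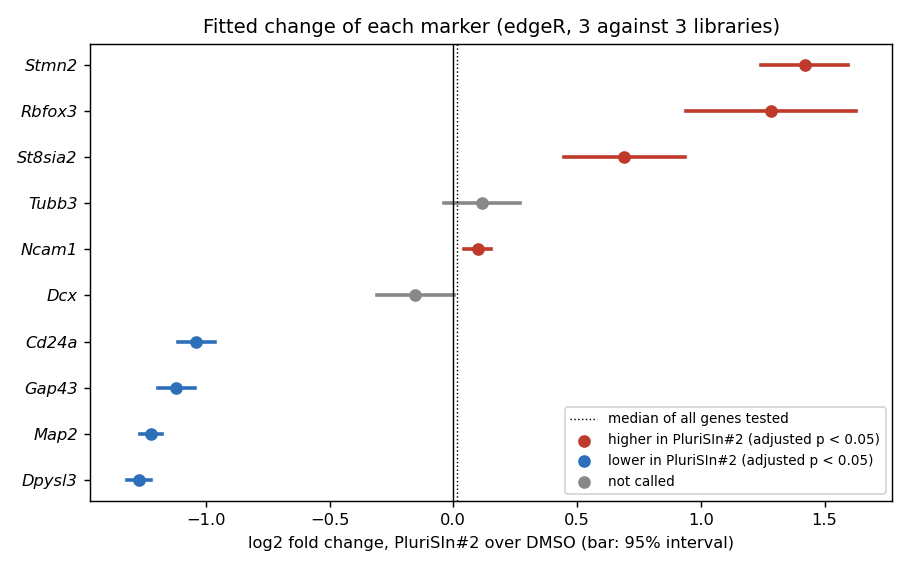
Fitted log2 fold change of PluriSIn#2 over DMSO for each marker, with its 95% interval, coloured by call, and the median of all genes tested as a dotted line. Stmn2 (1.42) and Dpysl3 (-1.27) are the ends of the range, and the intervals of Dcx and Tubb3 cross 0.

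Upstream sequences of 5 of the 10 markers were in the RefSeq promoter table (GRCm38.p6, 250 bases before to 50 after a transcript start). Of the markers called at 1.5-fold or more these were Map2, St8sia2 and Rbfox3, shown here, without annotated exon bases, because they moved in opposite directions. Capitals mark the E-box, CANNTG, the motif of the helix-loop-helix class of factors to which Neurod1 belongs. CANNTG reads the same on both strands.
Map2, which fell, chr1:66175079-66175201, plus strand: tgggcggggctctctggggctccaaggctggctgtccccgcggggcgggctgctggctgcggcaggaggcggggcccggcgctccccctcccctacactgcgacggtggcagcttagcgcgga
St8sia2, which rose, chr7:74013728-74013932, minus strand: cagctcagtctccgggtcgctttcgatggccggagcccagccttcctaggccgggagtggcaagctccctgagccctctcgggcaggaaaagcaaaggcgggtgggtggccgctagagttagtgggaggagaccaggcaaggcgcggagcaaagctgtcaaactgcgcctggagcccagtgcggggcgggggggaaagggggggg
Rbfox3, which rose, chr11:118761042-118761291, minus strand, at an internal start of the gene: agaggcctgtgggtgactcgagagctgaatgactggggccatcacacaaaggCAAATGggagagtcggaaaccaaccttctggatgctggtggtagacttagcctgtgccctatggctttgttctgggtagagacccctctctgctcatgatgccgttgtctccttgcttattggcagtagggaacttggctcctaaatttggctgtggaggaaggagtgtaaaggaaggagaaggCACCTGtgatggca
The Rbfox3 stretch of 250 bases held 2 E-boxes, where the first 250 bases of 66.2% of 32851 RefSeq windows hold at least 1. The Map2 stretch of 123 bases and the St8sia2 stretch of 205 bases held 0, where 42.7% and 59.8% of the windows hold at least 1 in as many bases. The windows of Dcx and Tubb3 held 0 as well. Over whole windows of 300 bases the share was 72.3%. The G and C share was 77.2% for Map2, 67.8% for St8sia2 and 52.8% for Rbfox3. A match is a description of the letters, not of a bound site.

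Among the cytoskeletal markers, Dcx encodes doublecortin, the microtubule-binding protein that defines migrating neuroblasts. It had 18.6, 17.6 and 17.5 CPM in the PluriSIn#2 libraries, against 19.6, 20.0 and 20.0 CPM in the DMSO libraries. Every treated library was below every DMSO library, yet the distance was small. The log2 fold change was -0.15 (SE 0.078, 95% interval -0.31 to 0.00), with an edgeR adjusted p of 0.0646, so Dcx was not called. The low end of the interval corresponds to 0.807-fold of the DMSO level. Dcx lies on chromosome X from 143855842 to 143933311 (coordinates of genes are from GENCODE M21 on GRCm38, the build also called mm10).

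Tubb3 encodes the beta-III tubulin that neurons use. Its treated libraries had 19.3, 23.6 and 24.8 CPM, and its DMSO libraries 20.1, 21.8 and 20.6 CPM. PluriSIn#2 replicate 1 was lower than all 3 DMSO libraries and the other treated libraries were higher, so the groups overlapped. The log2 fold change was 0.12 (SE 0.077, 95% interval -0.04 to 0.27) and the edgeR adjusted p 0.159. Its sign rested on the library: with PluriSIn#2 replicate 1 alone it was -0.11 (edgeR adjusted p = 0.376), and without that library it was 0.21 and called (edgeR adjusted p = 0.0149). Scaling by library totals alone also gave a call (0.19, edgeR adjusted p = 0.0238). Tubb3 lies on chromosome 8 from 123411424 to 123422015.

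Map2, which encodes the microtubule-associated protein of dendrites and cell bodies, stood at 382.0, 382.2 and 384.8 CPM in the treated libraries, and at 871, 886 and 919 CPM in the DMSO libraries. The groups were far apart and the treated libraries nearly equal. Map2 fell to 42.9% of its DMSO mean (log2 fold change -1.22, SE 0.022, edgeR adjusted p = 1.64e-65), with 8.73% of all genes tested showing a lower log2 fold change. With 20305 reads in PluriSIn#2 and 48522 in DMSO it is the most deeply read of the markers. Its 267 kb lie on chromosome 1 from 66175273 to 66442583.

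Stmn2 encodes stathmin-2, a microtubule-destabilising protein of growing axons. It had 24.0, 24.6 and 24.1 CPM in the treated libraries, against 8.96, 9.68 and 8.59 CPM in the DMSO libraries. Stmn2 rose by 2.67-fold, the largest rise of the 10 markers (log2 fold change 1.42, SE 0.088, edgeR adjusted p = 7.38e-27). The reads behind it numbered 1287 in PluriSIn#2 and 493 in DMSO. In FPKM, the level normalised for gene length and depth as deposited by the authors, Stmn2 averaged 12.8 ± 0.154 in PluriSIn#2 and 4.56 ± 0.285 in DMSO (SD, n = 3 each). It lies on chromosome 3 from 8509360 to 8561606.

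Dpysl3, also called CRMP4, encodes a protein that links guidance signals to the cytoskeleton of growing processes. Values were 245, 246 and 262.0 CPM in the treated libraries, and 599, 605 and 613 CPM in the DMSO libraries. It fell to 41.5% of the DMSO mean, the lowest of the markers (log2 fold change -1.27, SE 0.025, edgeR adjusted p = 2.08e-63). Dpysl3 lies on chromosome 18 from 43320984 to 43438286.

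Gap43, a membrane-associated protein of growth cones, gave 68.6, 66.1 and 66.9 CPM in the treated libraries and 145, 142 and 151 CPM in the DMSO libraries. It fell to 46.0% of the DMSO mean (log2 fold change -1.12, SE 0.038, edgeR adjusted p = 3.17e-45). The 3 values of each group lay within a few CPM of each other. Gap43 lies on chromosome 16 from 42248442 to 42340651.

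The surface proteins moved in different directions. Cd24a, a small glycoprotein used to sort neuroblasts and also present on ependymal cells, had 68.0, 70.7 and 70.3 CPM in PluriSIn#2 and 139, 145 and 146 CPM in DMSO. It fell to 48.7% of the DMSO mean (log2 fold change -1.04, SE 0.037, edgeR adjusted p = 5.76e-43). A stretch of 218 bases of Cd24a matches the predicted gene Gm6212 at 96.8% identity. Gm6212 is not among the counted genes, and how reads that fit both were handled is not stated. Cd24a lies on chromosome 10 from 43578284 to 43584265.

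Ncam1, the neural cell adhesion molecule and the main carrier of polysialic acid, had 248, 249.8 and 251 CPM in the treated libraries, against 237, 230.0 and 233 CPM in the DMSO libraries. All 3 treated values were above all 3 DMSO values, by a few percent. The rise was 1.07-fold (log2 fold change 0.10, SE 0.027, edgeR adjusted p = 0.000699), and with PluriSIn#2 replicate 1 alone the call ended (0.09, edgeR adjusted p = 0.0626). An antisense gene, Gm11149, shares 417 exonic bases with Ncam1 but had at most 10 reads in any library. Ncam1 lies on chromosome 9 from 49502136 to 49798925.

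St8sia2 encodes the polysialyltransferase that adds polysialic acid to Ncam1 in young neurons. It had 8.92, 10.3 and 9.61 CPM in PluriSIn#2 and 6.22, 5.07 and 6.56 CPM in DMSO. The groups did not overlap, and the rise was 1.61-fold (log2 fold change 0.69, SE 0.12, edgeR adjusted p = 4.45e-07). With 510 reads in PluriSIn#2 and 324 in DMSO, its 95% interval ran from 1.36-fold to 1.91-fold. The gene lies on chromosome 7 from 73939119 to 74013690.

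Rbfox3 encodes the splicing regulator recognised by the NeuN antibody, a marker of neurons that have left the immature state. Its treated libraries had 4.97, 6.86 and 5.92 CPM and its DMSO libraries 2.13, 2.76 and 2.40 CPM. Each treated library was above all DMSO libraries, and the spread between treated libraries was the widest, relative to its mean, of the markers. Rbfox3 rose by 2.43-fold (log2 fold change 1.28, SE 0.17, edgeR adjusted p = 1.89e-10, 95% interval 1.92-fold to 3.09-fold). It is the least read of the 10, with 314 reads in PluriSIn#2 and 132 in DMSO, over a gene that spans 422 kb of chromosome 11 from 118489762 to 118911597.

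The falls lay among the abundant markers. The 5 markers averaging at least 100 CPM over the 6 libraries (Map2, Dpysl3, Ncam1, Gap43 and Cd24a) held all 4 falls, and the 5 averaging under 25 CPM (Tubb3, Dcx, Stmn2, St8sia2 and Rbfox3) held the 3 larger rises. Over the whole table, 54.7% of 2685 genes averaging at least 100 CPM were lower and 37.8% higher, while 28.3% of 6577 genes under 25 CPM were lower and 47.7% higher. At least 2-fold lower were 10.1% of the genes in the first class, with 7.56% at least 2-fold higher, and 12.4% of those in the second, with 27.1% at least 2-fold higher. These cutoffs were set after the levels were seen. Summed over the 5 abundant markers, the libraries held between 1012 and 1035 CPM in PluriSIn#2 and between 1990 and 2061 CPM in DMSO. Summed over the 5 scarce ones, they held between 75.8 and 82.9 CPM in PluriSIn#2 and between 57.0 and 59.3 CPM in DMSO.

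On the length-normalised scale, the authors' FPKM placed the level of Map2 highest, at 69.6 ± 0.287 in PluriSIn#2 and 155 ± 4.09 in DMSO. In PluriSIn#2 it was followed by Gap43 (51.8 FPKM), Dpysl3 (46.0), Ncam1 (43.3), Cd24a (38.5), Tubb3 (13.1), Stmn2 (12.8), Dcx (1.98), St8sia2 (1.79) and Rbfox3 (1.31). In DMSO the order of levels was Map2, Gap43 (107 FPKM), Dpysl3 (106), Cd24a (75.5), Ncam1 (38.8), Tubb3 (11.6), Stmn2 (4.56), Dcx (2.10), St8sia2 (1.06) and Rbfox3 (0.511). Ncam1 and Cd24a thus changed places between the groups. Neighbours whose library ranges overlapped were Tubb3 and Stmn2 in PluriSIn#2, and Gap43 and Dpysl3 in DMSO. The place of Map2 depends on the length used. The authors' FPKM imply about 5629 bases in DMSO, where the union of its GENCODE exons is 16449 bases. CPM per kilobase of that union puts Map2 in place 5 in PluriSIn#2 and place 4 in DMSO, with Gap43 first in both. The nearness of Stmn2 to Tubb3 in PluriSIn#2 depends on the length too. For Stmn2 the FPKM imply about 1942 bases, where the union is 5602 bases. CPM per kilobase of each gene's union in PluriSIn#2 was 4.33 for Stmn2 and 12.1 for Tubb3.

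**Figure D3:**
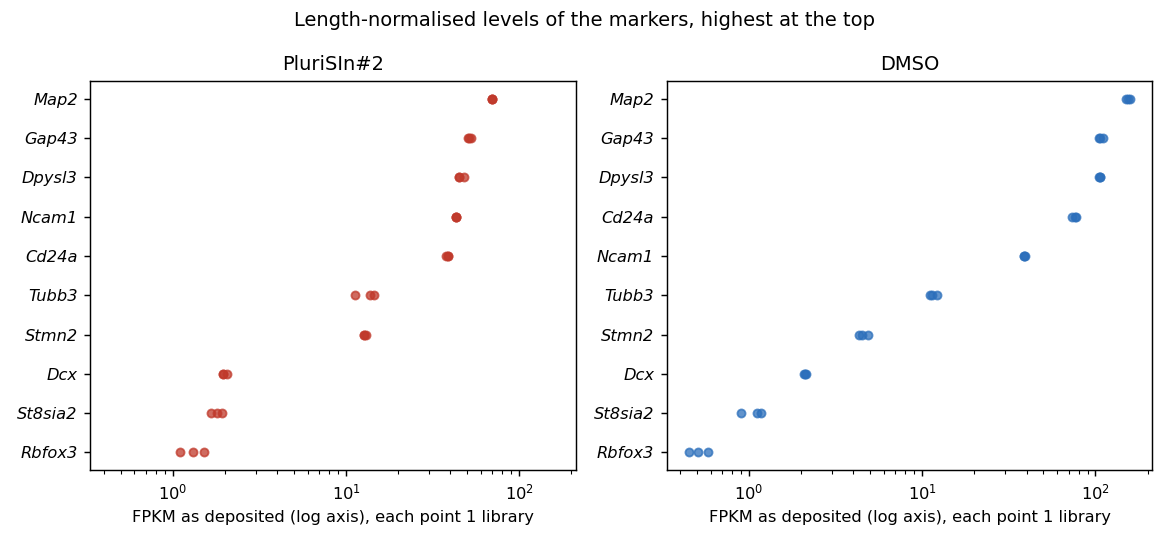
FPKM of each marker as deposited, each point 1 library, on a log axis, with PluriSIn#2 in the left panel and DMSO in the right, ordered by group mean from the top. Dcx, St8sia2 and Rbfox3 stay near or below 2 FPKM in both groups. Stmn2 reaches the FPKM of Tubb3 in PluriSIn#2, but not its CPM per kilobase of exon union.

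Relatives of the markers were described by family, as 160 genes in 13 lists, of which 153 passed the filter on low counts. Of these, 70 were higher and 67 lower in PluriSIn#2, with a median log2 fold change of 0.06. The shares over all genes tested, 41.7% higher and 40.9% lower, are the background for each list below. All adjusted p-values below are from the same edgeR fit over all genes.

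Of 12 tubulin genes other than Tubb3, 10 were lower, 1 was higher and Tuba8 was not called (median log2 fold change -1.30). Of all genes tested 40.9% were lower, and of those averaging at least 100 CPM 54.7%. Tubb5, the most abundant and a tubulin of dividing cells, averaged 245 ± 0.587 CPM in PluriSIn#2 and 1683 ± 12.6 CPM in DMSO (log2 fold change -2.78, edgeR adjusted p = 1.42e-94). Tuba4a was the 1 that rose, with 42.7 CPM in PluriSIn#2 and 8.19 CPM in DMSO (2.38). Tubb2b, a tubulin of young neurons and glial progenitors, had a log2 fold change of -1.56, and Tuba1a, the alpha-tubulin of migrating neurons, -1.31.

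Microtubule-associated proteins were divided, with 6 of 17 higher and 8 lower (median -0.02), where 41.7% of all genes tested were higher and 40.9% lower. Map4, the most abundant, fell slightly (log2 fold change -0.32). Mtus2 rose most (1.43) and Map6d1 fell most (-1.01), while the axonal gene Mapt, which encodes tau, rose (0.56) and Map1b, a protein of growing axons, fell (-0.99). In the doublecortin family, the abundant kinase genes Dclk1 (454 CPM in PluriSIn#2 and 477 CPM in DMSO, log2 fold change -0.07) and Dclk2 (-0.30) were lower. The call of Dclk1 ended when library totals alone were used (-0.00, edgeR adjusted p = 0.925) and with PluriSIn#2 replicate 1 alone (-0.07, edgeR adjusted p = 0.0915). Dcdc2a rose from a scarce level, with 93 reads in PluriSIn#2 and 27 in DMSO (1.80). With so few DMSO reads, Dcdc2a passed the filter on low counts only through PluriSIn#2, which nearly fixed its direction.

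All 4 other collapsin response mediator genes fell less than Dpysl3. Dpysl2, the most abundant, had a log2 fold change of -0.21 and Crmp1, which fell most, -0.45. In the stathmin family, Stmn1, a stathmin of dividing progenitors, averaged 16.7 ± 0.644 CPM in PluriSIn#2 and 127 ± 6.54 CPM in DMSO (log2 fold change -2.94, edgeR adjusted p = 2.64e-66). Stmn3 fell too (-0.93), and Stmn4 rose (0.37, edgeR adjusted p = 0.00215), although not with PluriSIn#2 replicate 1 alone (0.22, edgeR adjusted p = 0.228). Stmn2 thus rose while Stmn1 and Stmn3 fell. Among 7 tested genes of growth cone membranes, 5 were lower and 2 higher. Marcks, the most abundant, had 339 CPM in PluriSIn#2 and 1108 CPM in DMSO (-1.71), Nrgn fell most (-3.59) and Gprin2 rose (2.00). Gprin2, with 95 reads in PluriSIn#2 and 24 in DMSO, passed the filter on low counts only through PluriSIn#2, which nearly fixed its direction. Basp1, whose product resembles that of Gap43, fell by 0.91 on the log2 scale.

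Of 15 tested neural adhesion molecules of the immunoglobulin type, 11 were higher, where 41.7% of all genes were, and 2 lower (median log2 fold change 0.58). Nfasc, a protein of axon initial segments, averaged 184 ± 0.666 CPM in PluriSIn#2 and 53.9 ± 2.65 CPM in DMSO (log2 fold change 1.77, edgeR adjusted p = 1.35e-60). Cadm4, the most abundant, also rose (0.92), as did L1cam, an axonal adhesion molecule (1.35). Ncam2, the paralogue of Ncam1, fell (-0.52), and Cntn6 fell most (-0.57), though its call ended with PluriSIn#2 replicate 1 alone (-0.31, edgeR adjusted p = 0.267). Of 4 tested sialyltransferases other than St8sia2, 2 rose and 2 fell. St8sia4, the second polysialyltransferase, averaged 4.18 CPM in PluriSIn#2 and 5.54 CPM in DMSO and was lower (-0.41), opposite in sign to St8sia2. Its call did not hold in DESeq2 or in 4 of the fits with fewer libraries, among them PluriSIn#2 replicate 1 alone (-0.21, edgeR adjusted p = 0.373). St8sia1, a ganglioside enzyme and the most abundant, fell (-0.83), and St8sia5 rose (2.41).

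Among the RNA-binding proteins related to Rbfox3, the Rbfox and Celf genes rose, the Nova genes fell and the Elav genes split. Rbfox1 rose (log2 fold change 1.55) and Rbfox2, the most abundant, rose slightly (0.13). Celf5 rose most, with 97.1 CPM in PluriSIn#2 and 15.2 CPM in DMSO (2.68). The neuronal Elav genes Elavl2 (-2.16) and Elavl4 (-2.07) fell and Elavl3 rose (0.60). Nova1 (-1.05) and Nova2 (-0.39) fell as well. In all, 6 of 11 were higher and 5 lower, where 41.7% of all genes tested were higher and 40.9% lower.

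**Figure D4:**
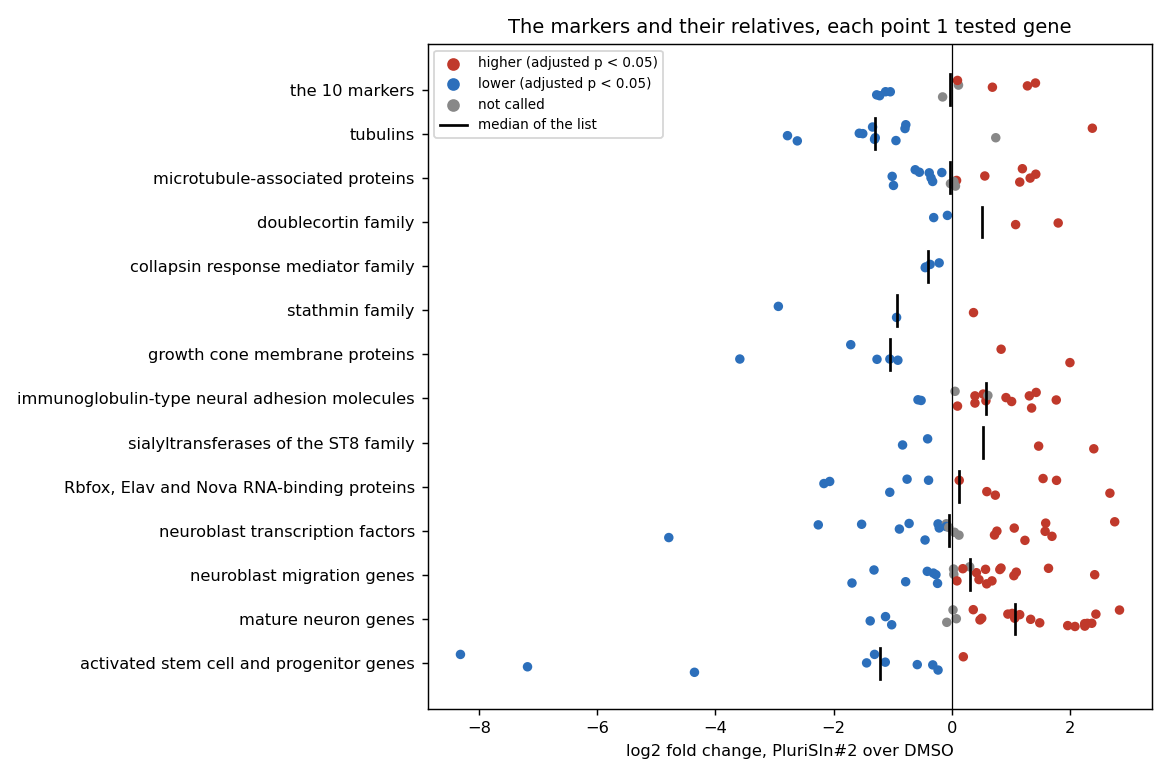
Log2 fold change of PluriSIn#2 over DMSO for the 10 markers and their relatives, each point 1 tested gene coloured by call, with the median of each list as a black bar. Tubulins (median -1.30) lie mostly left of 0, and mature neuron genes (median 1.07) mostly right of it.

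Transcription factors of the neuroblast lineage were 8 of 21 higher and 9 lower, near the shares of all genes tested (41.7% higher and 40.9% lower). Sox4, the most abundant, was close to its DMSO level (log2 fold change -0.09, and not called with library totals alone, -0.02, edgeR adjusted p = 0.368). Sox11, at a similar DMSO level, fell from 309 CPM in DMSO to 107 CPM in PluriSIn#2 (-1.52), and Insm1 fell too (-2.26). Myt1, which is read in oligodendrocyte precursors as well as young neurons, fell most, with 2.59 CPM in PluriSIn#2 and 71.7 CPM in DMSO (-4.79), and Neurod1 rose (1.70). The interneuron factors Dlx1 (-0.09) and Sp8 (0.12) were not called, Dlx2 fell (-0.72) and Sp9 rose (1.24). With PluriSIn#2 replicate 1 alone the uncalled values changed sign, to 0.26 for Dlx1 and -0.03 for Sp8 (edgeR adjusted p = 0.239 and 0.919). Genes of neuroblast migration were 13 of 23 higher and 7 lower, beside the same shares of all genes tested. Pafah1b1, whose product Lis1 moves the nucleus, was the most abundant (0.09, and 0.07 with an edgeR adjusted p of 0.0795 for PluriSIn#2 replicate 1 alone). Reln, the secreted stop signal reelin, rose most (2.42), and the netrin receptor gene Dcc fell most (-1.69).

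Genes of mature neurons were mostly higher: 17 of 23 tested rose and 3 fell, with 13 at least 2-fold higher and a median log2 fold change of 1.07. Of all genes tested, 41.7% were higher and 16.3% at least 2-fold higher, and of those averaging under 25 CPM 47.7% and 27.1%. Calb1 rose most (2.84) on 156 reads in PluriSIn#2 and 22 in DMSO. The vesicle protein gene Snap25 averaged 13.3 CPM in PluriSIn#2 and 6.89 CPM in DMSO (0.95), and the neurofilament gene Nefl 19.8 CPM in PluriSIn#2 and 7.03 CPM in DMSO (1.49). Camk2b, the most abundant (205 CPM in PluriSIn#2 and 415 CPM in DMSO, -1.02), Camk2a (-1.38) and Thy1 (-1.12) fell. Scarce genes passed the filter on low counts through either group, so the counts of risers include genes that could be tested only because treated libraries held more reads.

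Markers of other cell types moved in the same libraries, where 41.7% of all genes tested were higher and 40.9% lower. All 10 oligodendrocyte precursor markers were lower, with a summed level between 2359 and 2428 CPM in PluriSIn#2 and between 2977 and 3108 CPM in DMSO. Their median log2 fold change was -3.40, and 7 were at least 2-fold lower. Most of the sum came from Olig1 and Olig2, and without them it was between 98.2 and 103 CPM in PluriSIn#2 and between 346 and 355 CPM in DMSO. Olig1 itself was close to its DMSO level, at 1656 ± 35.4 CPM in PluriSIn#2 and 1738 ± 41.3 CPM in DMSO (log2 fold change -0.07), with overlapping libraries and no call when library totals alone were used. Pdgfra averaged 4.91 CPM in PluriSIn#2 and 56.9 CPM in DMSO, Cspg4 86.2 CPM in PluriSIn#2 and 149 CPM in DMSO, and Neu4 was at 0 reads in PluriSIn#2 and 76 in DMSO. Of the markers also transcribed in glial progenitors, Map2, Gap43 and Dpysl3 fell and Ncam1 rose by 1.07-fold. The part of oligodendrocyte precursors in these changes was not tested. All 10 astrocyte markers were higher, 6 of them at least 2-fold. Their sum was between 12250 and 12480 CPM in PluriSIn#2 and between 3923 and 3952 CPM in DMSO. The largest part of that rise came from Apoe, which averaged 5486 CPM in PluriSIn#2 and 259.9 CPM in DMSO. Smaller rises were those of Slc1a3 (2707 CPM in PluriSIn#2 and 1937 CPM in DMSO) and Aldh1l1 (600.0 CPM in PluriSIn#2 and 534.4 CPM in DMSO). Gfap averaged 299.6 CPM in PluriSIn#2 and 42.0 CPM in DMSO, and Aqp4 249.6 CPM in PluriSIn#2 and 79.4 CPM in DMSO. Ependymal markers, of which 7 of 8 tested rose, summed to between 176.5 and 180.4 CPM in PluriSIn#2 and between 46.2 and 48.3 CPM in DMSO. Most of that sum came from Foxj1, the regulator of motile cilia, at 144 CPM in PluriSIn#2 and 34.1 CPM in DMSO. Ccdc153 averaged 0.756 CPM in PluriSIn#2 and 0.0917 CPM in DMSO. With 5 reads in DMSO, Ccdc153 passed the filter on low counts only through PluriSIn#2. Hydin, a gene of motile cilia, was the 1 that fell, with 0.602 CPM in PluriSIn#2 and 3.66 CPM in DMSO (-2.59). Cd24a fell in the same libraries, and the part of ependymal cells in that fall was not tested.

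Microglia and macrophage markers (8 of 8 tested higher) summed to between 146 and 153 CPM in PluriSIn#2 and between 7.32 and 7.90 CPM in DMSO. Markers in this paragraph with few DMSO reads, among them Trem2, Csf1r and Cdh5, passed the filter on low counts only through PluriSIn#2. Being tested thus nearly fixed their direction, and the counts of higher markers are to be read with that limit. Aif1 had 30 reads in PluriSIn#2 and 6 in DMSO, Csf1r 293 in PluriSIn#2 and 15 in DMSO, and Trem2 543 in PluriSIn#2 and 0 in DMSO. Endothelial markers (7 of 8 higher) summed to between 31.9 and 35.7 CPM in PluriSIn#2 and between 6.72 and 8.24 CPM in DMSO. Pecam1 averaged 2.75 CPM in PluriSIn#2 and 0.772 CPM in DMSO, and Cdh5 16.5 CPM in PluriSIn#2 and 0.128 CPM in DMSO. Fibroblast and mural markers (8 of 10 higher, 1 lower) summed to between 324.1 and 324.5 CPM in PluriSIn#2 and between 180 and 187 CPM in DMSO. The lower one is Cspg4, also listed for oligodendrocyte precursors. Without it the sum was between 235 and 240.2 CPM in PluriSIn#2 and between 33.7 and 35.3 CPM in DMSO. Col1a1 averaged 44.7 CPM in PluriSIn#2 and 1.95 CPM in DMSO, and Col1a2 45.2 CPM in PluriSIn#2 and 0.751 CPM in DMSO. The part of any of these cell types in the changes of the 10 markers was not tested.

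The proliferation gene Mki67 averaged 3.19 ± 0.204 CPM in PluriSIn#2 and 1020 ± 6.25 CPM in DMSO (log2 fold change -8.32), the largest fall among 10 genes of activated stem cells and progenitors, of which 9 fell. Vim, the most abundant of them, was the 1 that rose (0.20). The authors' deposited table of fold changes gave log2 fold changes within 0.01 of the edgeR values for each of the 10 markers, with adjusted p-values of 0.164 for Dcx, 0.377 for Tubb3 and 0.00403 for Ncam1.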

How the data were processed

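RNA of 6 libraries was sequenced on an Illumina protocol, per the labels. The authors deposited whole-number read counts per gene symbol, not normalized. They also deposited FPKM per library, and log2 fold changes and p-values of their own comparison. STAR, HTSeq, DESeq and mm10 are named in the submitters' processing notes. Versions, annotation and strand use of the counting are not stated there. The authors' table held 25 gene names turned into dates, which were left out.

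Counts were fitted in R 4.3.3 with edgeR 4.0.16 (filterByExpr, TMM, glmQLFit, glmQLFTest, group as the only term) on all 6 libraries. Of 19218 genes with a read, 14417 were tested, two-sided, with Benjamini-Hochberg adjustment over all of them. The common dispersion corresponds to a spread of 2.35% between replicates. A chi-square per degree of freedom of 1.56 to 2.22 between replicates shows no copied library. Standard errors are the log2 fold change divided by the root of F. The fits were tested on simulated data in which few genes changed. In the real libraries most genes changed, and scaling under that condition was not tested. DESeq2 1.42.0 and limma 3.58.1 served as alternatives. Gene spans, exon lengths and sequence similarity (megablast, at least 95% identity over at least 100 bases) used GENCODE M21.

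Samples were grouped by title. The members and lists were chosen with earlier results of these data known. Named genes are all markers and, per family, the most abundant gene and the largest called rise and fall with a mean of at least 1 CPM, and genes beyond these were chosen after their values were seen, as were the abundance classes, the sums without single markers and the E-box shares by length. Counting error limits genes with few reads.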

Additional observations from a re-analysis of the deposited data

How the results depend on the processing

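Of 14 alternatives (RLE size factors, library totals alone, DESeq2, no filter on low counts, a filter at 1 CPM, limma on log2(CPM + 1), a replicate block, each library left out, and PluriSIn#2 replicate 1 alone), 4 markers were lower in each. Between 3 and 5 were higher. The 3 was with PluriSIn#2 replicate 1 alone, where Ncam1 was not called, and the 5 with library totals alone and without PluriSIn#2 replicate 1, where Tubb3 was. Tubb3 alone changed sign, to -0.11 with PluriSIn#2 replicate 1 alone. Dcx was called in none, with edgeR, DESeq2 or limma adjusted p-values between 0.0534 and 0.43. With each library left out in turn, 4 to 5 markers were higher and 4 lower. Between 10943 and 12507 genes were called over all alternatives. For the families, 70 relatives higher became between 62 and 75, and 67 lower between 64 and 67. Library totals alone moved the median of all genes by 0.07. Same-numbered libraries did not measurably vary together (correlations of -0.00 to 0.03 between their deviations). Counting noise weighs on these deviations, so the correlations cannot tell whether same-numbered libraries share a culture or batch. With the replicate block 4 markers were higher, 4 lower and 11851 genes were called. Scarce genes limit precision most: the 95% interval of Rbfox3 was the widest of the markers.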

Other observations

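Some markers shifted against another gene of the same family in FPKM, as deposited by the authors, and others little. The ratio of Stmn2 to Stmn1 was 0.812 ± 0.0268 in PluriSIn#2 and 0.0398 ± 0.0033 in DMSO (SD, n = 3 each). Tubb3 stood to Tubb5 at 0.141 ± 0.0182 in PluriSIn#2 and 0.019 ± 0.000944 in DMSO. St8sia2 stood to St8sia4, which makes the same polymer, at between 1.87 and 2.75 in PluriSIn#2 and between 0.847 and 1.45 in DMSO. The ratio of Dpysl3 to Dpysl2 was 2.29 ± 0.15 in PluriSIn#2 and 4.78 ± 0.3 in DMSO. The ratio of Map2 to Map1b was 5.65 ± 0.125 in PluriSIn#2 and 6.65 ± 0.305 in DMSO, and that of Dcx to Dclk1 was 0.0341 ± 0.00107 in PluriSIn#2 and 0.0361 ± 0.000357 in DMSO. The 6 ratios, all that were computed, were chosen after the values were seen and carry no test.

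Map2 and Dpysl3 made up between 57.2% and 57.9% of the summed CPM of the 10 markers in PluriSIn#2 and between 71.8% and 72.3% in DMSO. The sum itself was 1101 ± 15.1 CPM in PluriSIn#2 and 2078 ± 37.4 CPM in DMSO.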
